A study of Mus musculus with 16 samples.

Results

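Lepr, the gene of the leptin receptor, and 7 genes typical of adipocytes (Adipoq, Plin1, Fabp4, Pparg, Lpl, Cd36 and Retn) were followed in mouse intervertebral discs. They were taken from the table by gene symbol, 8 of 49315 genes. Lepr was included because it was much lower in injured mutant than in injured wild-type discs in an earlier look at these values, and the other 7 were added to see whether it moved with adipose genes. Lepr was thus chosen by its measured difference between the injured groups, which is given below as a description without a test. Its injury changes use the same injured libraries and are likewise given without a test.

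RNA was sequenced from the tail discs of 16 mice, with 4 discs of each mouse pooled into 1 library. The mice were wild type or carried Adam8EQ, an allele of the metalloprotease gene Adam8, and their discs were labelled injured or intact. There were 3 wild-type intact, 4 wild-type injured, 4 mutant intact and 5 mutant injured mice. The series title names the comparison strain as DBA, and the labels give neither the strain of the mutants, nor the age of the mice, nor the kind of injury and the time after it. Levels are in TPM, read counts scaled by gene length and library total. A change is the difference between 2 group means of log2(TPM + 1), which is smaller than the true change for genes of low level.

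The leptin receptor is a cytokine receptor that signals through the kinase Jak2 and the transcription factor Stat3, and it exists in splice forms with long and short cytoplasmic tails. Besides the brain, it marks mesenchymal stromal cells of bone marrow, cells that can give rise to osteoblasts and to marrow adipocytes. Mature adipocytes are recognised by the hormone adiponectin (Adipoq) and the lipid droplet coat protein perilipin 1 (Plin1). Other genes of the adipocyte programme, among them Fabp4, Lpl, Cd36 and Pparg, are also used by endothelial cells, muscle or macrophages.

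Lepr (ENSMUSG00000057722) lies at chr4:101717404-101815352 on the plus strand of GRCm38, and Cd36 (ENSMUSG00000002944) at chr5:17781690-17888801 on the minus strand. Lepr is the gene the others are set against, and Cd36 was the member that passed the test for injury, so their RefSeq promoters (GRCm38.p6) are shown, 250 bases before to 50 after the start, 5′ to 3′ in the direction of the gene. The lines are the Lepr promoters at chr4:101717157-101717456 and chr4:101717656-101717955 on the plus strand and the Cd36 promoter at chr5:17835847-17836146 on the minus strand. The Cd36 promoter is the only 1 listed for that gene. It lies within the gene's span given above and not at its 5′ end.
Lepr promoter 1: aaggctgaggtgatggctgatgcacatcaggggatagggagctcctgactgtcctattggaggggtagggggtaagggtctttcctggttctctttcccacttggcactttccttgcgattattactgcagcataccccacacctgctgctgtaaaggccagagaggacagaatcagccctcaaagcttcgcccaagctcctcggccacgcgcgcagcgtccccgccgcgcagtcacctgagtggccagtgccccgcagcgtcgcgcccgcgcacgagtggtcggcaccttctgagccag
Lepr promoter 2: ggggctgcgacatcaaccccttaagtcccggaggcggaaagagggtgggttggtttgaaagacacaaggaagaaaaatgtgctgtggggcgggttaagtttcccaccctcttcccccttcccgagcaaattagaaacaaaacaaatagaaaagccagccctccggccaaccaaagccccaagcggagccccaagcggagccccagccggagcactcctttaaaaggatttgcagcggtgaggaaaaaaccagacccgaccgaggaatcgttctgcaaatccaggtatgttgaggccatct
Cd36 promoter: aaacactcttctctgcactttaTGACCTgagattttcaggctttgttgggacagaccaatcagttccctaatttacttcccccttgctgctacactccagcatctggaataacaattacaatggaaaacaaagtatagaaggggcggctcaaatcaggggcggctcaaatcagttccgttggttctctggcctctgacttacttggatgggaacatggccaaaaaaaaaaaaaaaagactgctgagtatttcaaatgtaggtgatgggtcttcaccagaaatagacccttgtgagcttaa
Capitals mark a match to AGGTCA, the hexamer bound by nuclear receptors such as the PPARs, here on the strand opposite to the gene.

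Both strands were searched for AGGTCA, for the direct repeat of it with 1 base between (DR1), for TTGCGCAA (a palindrome bound by C/EBP factors) and for TTCNNNGAA (the form bound by STAT factors). Of 32851 RefSeq promoters of the same length, 16.3% held AGGTCA, 0.0396% the repeat, 0.183% TTGCGCAA and 8.30% TTCNNNGAA. Any repeat also counts as a match to AGGTCA. Promoters of 6 of the 8 genes were in the table, all but Fabp4 and Lpl. In the Cd36 promoter AGGTCA began 228 bases before the start, and in 2 of the 3 Pparg promoters it began 28 and 9 bases before the start on the gene's own strand. None of the 4 motifs was found in either Lepr promoter or in those of Adipoq, Plin1 and Retn. These matches describe letters within 300 bases and no binding was measured.

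The depth of a library, as reads implied by its TPM values, was 10193598 to 24832148. The libraries carried the defining genes of disc cells, with Acan at 2426 to 7024 TPM and Col2a1 at 658 to 9312 TPM in all 16. Adam8 was at 0.956 to 2.97 TPM in intact and 3.52 to 264 TPM in injured discs, and a gene-level value does not show which allele it comes from. Wild-type injured mice 1 and 2 stood nearer to intact discs than mice 3 and 4 did, with summed macrophage markers of 276 and 436 TPM against 4049 and 2640 TPM, where the intact discs held 162 to 266 TPM. In such whole-tissue RNA, fewer cells of a type and less RNA per cell cannot be told apart.

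Lepr was among the well-expressed genes of the intact disc. Its levels were 92.4, 94.9 and 146 TPM in the wild-type intact mice and 139, 133, 119.9 and 99.4 TPM in the mutant intact mice. The injured wild-type mice 1 to 4 had 88.7, 77.5, 21.7 and 54.7 TPM, and the injured mutants 1 to 5 had 6.14, 19.4, 8.60, 20.01 and 18.7 TPM. All 5 injured mutants lay below each of the other 11 libraries, the wild-type injured mice lay between, and the intact genotypes overlapped. Between 198 and 2991 implied reads stood behind these values.

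In mutants the mean Lepr level was 8.45-fold lower in injured discs, with 123 ± 17.5 TPM (SD, n = 4) in intact and 14.6 ± 6.63 TPM (SD, n = 5) in injured discs. The log2 change was -3.11 ± 0.39 (SE), with no overlap between the groups. It rests on the same 5 injured mutants as the difference that chose the gene. Among the mutants whose library names begin with A8 (2 intact, 2 injured) the change was -3.51. It was -2.80 among those whose names begin with M (2 intact, 3 injured). Both parts hold injured mutants that chose the gene, so they are a description and no separate support. Leaving out single mice gave changes between -3.26 and -2.87.

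In wild-type mice the groups also did not overlap, with means of 111 ± 30.4 TPM (SD, n = 3) in intact and 60.6 ± 29.6 TPM (SD, n = 4) in injured discs. The log2 change was -1.01 ± 0.44 (SE), again over injured libraries that chose the gene. It was -0.58 without injured mouse 3. Wild-type mice 3 and 4 had the lower Lepr levels and, as given above, the higher macrophage sums. The injured mutants did not follow this order. Their highest and lowest macrophage sums, 8329 TPM in mouse 2 and 895 TPM in mouse 5, went with Lepr at 19.4 and 18.7 TPM. Mutant injured mice 1 and 3, the lowest in Lepr, had macrophage sums of 2206 and 1418 TPM. The relation was not tested.

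Between genotypes, Lepr was 0.17 ± 0.44 (SE) higher on the log2 scale in intact mutants and did not pass the test (limma, adjusted p = 1). In injured discs the mutants were lower by 1.94 ± 0.39 (SE) on the log2 scale, the difference for which the gene was chosen. The injury change was lower by 2.11 ± 0.59 (SE) in mutants than in the wild type, which contains that same difference and is likewise a description. Without wild-type injured mouse 1 the difference between injured groups was -1.70, and without mouse 2 it was -1.77.

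**Figure D1:**
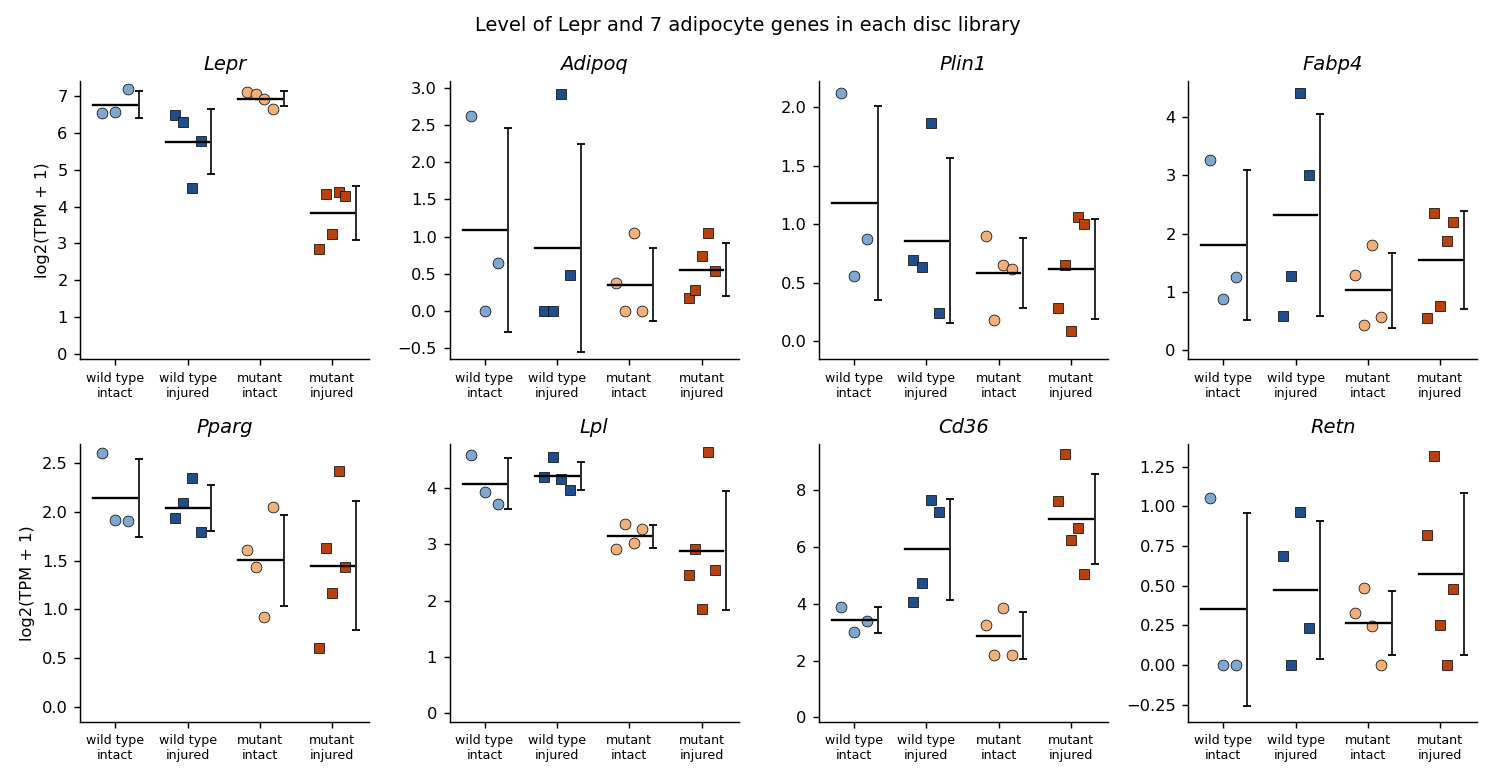
Level of each of the 8 genes as log2(TPM + 1) in each of the 16 libraries, by group, with the group mean as a horizontal line and the SD as a bar (3 to 5 mice a group). In injured mutants Lepr lies below and Cd36 above their intact levels, while Adipoq, Plin1 and Retn stay near the bottom of the scale in most libraries.

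The gene table holds 1 value for all Lepr transcripts (7 in GENCODE M21), so splice forms of the receptor were not told apart. Leprot, a nearby gene that codes for a protein of receptor trafficking, was at 82.3 to 128 TPM in all 16 libraries. Its change in injured mutants was -0.05 ± 0.11 (SE, limma, adjusted p = 0.782), with overlapping groups. Lep, the gene of the ligand leptin itself, was at 0 to 0.405 TPM in all libraries and was not tested.

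Adiponectin and perilipin 1 were barely present. Adipoq (chr16:23146536-23158028, plus strand) was at 5.16, 0 and 0.562 TPM in the wild-type intact mice and at 0, 0, 6.54 and 0.405 TPM in the wild-type injured mice. In the mutants it was at 0.293, 0, 1.07 and 0 TPM in intact discs and at 0.125, 0.213, 0.665, 1.08 and 0.454 TPM in injured discs. The gene was listed at 0 in 5 libraries, and only wild-type intact mouse 1 and wild-type injured mouse 3 exceeded 2 TPM, with 21 and 30 implied reads.

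Plin1 (chr7:79720218-79732903, minus strand) followed the same libraries. It was at 3.36, 0.473 and 0.834 TPM in wild-type intact, 0.620, 0.558, 2.66 and 0.18 TPM in wild-type injured, 0.870, 0.135, 0.572 and 0.533 TPM in mutant intact and 0.223, 0.569, 0.0658, 1.09 and 1.01 TPM in mutant injured discs. The same 2 wild-type mice were again the highest. Of the adipocyte genes listed further below, Cidec and Cfd stood high there too. Cidec, a lipid droplet protein, was at 4.02 and 4.71 TPM in these 2 libraries and under 1 TPM in the other 14. Cfd, the secreted protease adipsin, was at 40.5 and 33.3 TPM. Others did not: Cidea was at 0 in both libraries. The summed level of the 30 genes of that list was 10070 and 2687 TPM, in each case the lowest of its group. Most of that sum in intact discs was 1 gene, Car3, at 3696 to 9947 TPM. In injured discs Car3 was at 29.0 to 5871 TPM. The sum is therefore no measure of the low-level adipocyte genes in these libraries.

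Retn, the gene of resistin (chr8:3655770-3660110, plus strand), reached 1 TPM in 2 libraries only and was not tested. Its highest values were 1.49 TPM in mutant injured mouse 2 and 1.08 TPM in wild-type intact mouse 1, it was listed at 0 in 5 libraries, and it never had more than 8 implied reads. The summed level of Adipoq, Plin1 and Retn was 0.473 to 9.60 TPM in wild-type intact, 0.558 to 10.2 TPM in wild-type injured, 0.533 to 1.83 TPM in mutant intact and 0.925 to 2.27 TPM in mutant injured discs. The intact and the injured mutants overlapped in this sum, which rests on 0 to 17 implied reads per gene in the mutants. Lepr was chosen by its low level in injured mutants, so its lack of overlap is not set against this sum.

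Neither Adipoq nor Plin1 passed the test for injury. Adipoq changed by -0.24 ± 0.67 (SE, adjusted p = 0.882) in the wild type and 0.20 ± 0.59 (SE, adjusted p = 0.826) in mutants on the log2 scale. Plin1 changed by -0.32 ± 0.42 (SE, adjusted p = 0.713) and 0.03 ± 0.37 (SE, adjusted p = 0.959). At so few reads, small changes of these 2 genes were not detectable, and the signs turned with single mice left out: without wild-type intact mouse 1, the wild-type values became 0.53 for Adipoq and 0.14 for Plin1.

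Fabp4, the fatty acid binding protein of adipocytes, macrophages and capillary endothelium (chr3:10204088-10208576, minus strand), varied widely from mouse to mouse. It was at 8.62, 0.840 and 1.38 TPM in wild-type intact and 0.499, 1.40, 20.3 and 6.97 TPM in wild-type injured discs. In mutants it was at 1.44, 0.350, 2.50 and 0.483 TPM in intact and 0.461, 4.13, 0.682, 2.65 and 3.56 TPM in injured discs, so the groups overlapped in each comparison. The change with injury was 0.51 ± 0.82 (SE) in the wild type (adjusted p = 0.770 by limma) and 0.52 ± 0.72 (SE) in mutants (adjusted p = 0.619).

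Wild-type injured mouse 3, with the highest Fabp4, also had the highest summed level of 12 endothelial markers, 294 TPM against 11.0 to 99.9 TPM in all other libraries. It was highest in Adipoq as well. The part of endothelial or adipose RNA in this value was not tested. Without that mouse the wild-type Fabp4 change was -0.19. The annotated exons of Fabp4 cover 4489 bases, its whole span, against 896 bases of its coding transcript, so a level per length on the exon union is lower than one on the transcript.

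Pparg, the nuclear receptor that drives adipocyte differentiation (chr6:115360951-115490399, plus strand), was low and passed the test in none of the 5 comparisons. It was at 5.06, 2.77 and 2.76 TPM in wild-type intact, 2.82, 3.26, 4.08 and 2.46 TPM in wild-type injured, 2.05, 1.70, 0.901 and 3.15 TPM in mutant intact and 0.526, 2.09, 1.24, 4.33 and 1.70 TPM in mutant injured discs. All groups overlapped when compared by injury or by genotype. The change with injury was -0.10 ± 0.37 (SE) in the wild type and -0.06 ± 0.33 (SE) in mutants (limma, adjusted p = 0.912 and 0.915).

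Lpl codes for lipoprotein lipase, which frees fatty acids from circulating triglycerides (chr8:68880491-68907448, plus strand). Its level was 23.0, 14.2 and 12.2 TPM in wild-type intact and 17.4, 22.4, 16.9 and 14.6 TPM in wild-type injured discs. In mutants it was 6.52, 9.27, 7.14 and 8.66 TPM in intact and 4.51, 6.60, 2.63, 24.1 and 4.85 TPM in injured discs. The intact groups did not overlap, with the wild type above the mutants, and of the injured mutants all but mouse 4 lay below the injured wild-type mice.

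On the log2 scale the mutants were lower in Lpl by 0.93 ± 0.46 (SE) in intact and by 1.33 ± 0.41 (SE) in injured discs, and neither difference passed the test (limma, adjusted p = 1 and 0.101). The injury changes were 0.14 ± 0.46 (SE) in the wild type and -0.25 ± 0.41 (SE) in mutants (limma, adjusted p = 0.90 and 0.67). Mutant injured mouse 4 decided these calls. Without it the genotype difference in injured discs was -1.77 (limma, adjusted p = 0.00650) and the injury change in mutants -0.69 (limma, adjusted p = 0.0410), and both then passed.

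Mutant injured mouse 4 also had the highest summed level of 12 skeletal muscle markers among the injured discs, 851 TPM against 36.4 to 343 TPM in the other 8. Wild-type intact mouse 1, with the highest Lpl of the intact discs, had 1033 TPM against 169 to 471 TPM in the other 6. Other libraries went otherwise. Mutant injured mouse 5, with the 343 TPM, had Lpl at 4.85 TPM. Wild-type injured mice 2 and 3 held 155 and 116 TPM of these markers, with Lpl at 22.4 and 16.9 TPM. Muscle is a main site of Lpl. The part of these markers in the Lpl values was not tested.

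Cd36, a scavenger receptor and fatty acid transporter of macrophages, endothelium, muscle and fat, was the member that rose. It was at 13.8, 7.00 and 9.51 TPM in wild-type intact and 15.7, 25.8, 199 and 148 TPM in wild-type injured discs. In mutants it was at 8.56, 3.59, 13.5 and 3.54 TPM in intact and 196, 614, 74.5, 99.3 and 32.1 TPM in injured discs. Every injured library was above every intact library of both genotypes.

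In mutants the mean of Cd36 was 27.8-fold higher in injured discs, and the log2 change was 4.09 ± 0.82 (SE, limma, adjusted p = 0.00279). It was 5.71 among the mutants named A8 and 2.96 among those named M. The wild-type change of 2.49 ± 0.93 (SE) did not pass the test (limma, adjusted p = 0.218), and neither did the difference between the injury changes, 1.60 ± 1.24 (SE, limma, adjusted p = 0.763). Between genotypes Cd36 changed by -0.55 ± 0.93 (SE) in intact and 1.05 ± 0.82 (SE) in injured discs (limma, adjusted p = 1 and 0.496).

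Most macrophage markers rose with Cd36 in injured mutants. Of 12 fixed markers 11 were tested, and 10 rose in injured mutants by limma (13.1% of all genes did), among them Lyz2 by 5.63, C1qb by 4.15 and Adgre1 by 3.94 on the log2 scale, while Csf1r, the receptor of the macrophage growth factor, did not pass (0.44, adjusted p = 0.410) and Marco was at 0 to 0.157 TPM. The summed level was 176 to 211 TPM in wild-type intact, 276 to 4049 TPM in wild-type injured, 162 to 266 TPM in mutant intact and 895 to 8329 TPM in mutant injured discs. The library with the highest sum, mutant injured mouse 2, was also the highest in Cd36. The 12 endothelial markers had a median change of 1.14 in injured mutants, against -0.08 over all genes, and 0 passed by limma. Their sum was 11.0 to 21.8 TPM in mutant intact and 19.98 to 99.9 TPM in mutant injured discs, highest in mutant injured mouse 2. The part of macrophage or endothelial RNA in the Cd36 rise was not tested.

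**Figure D2:**
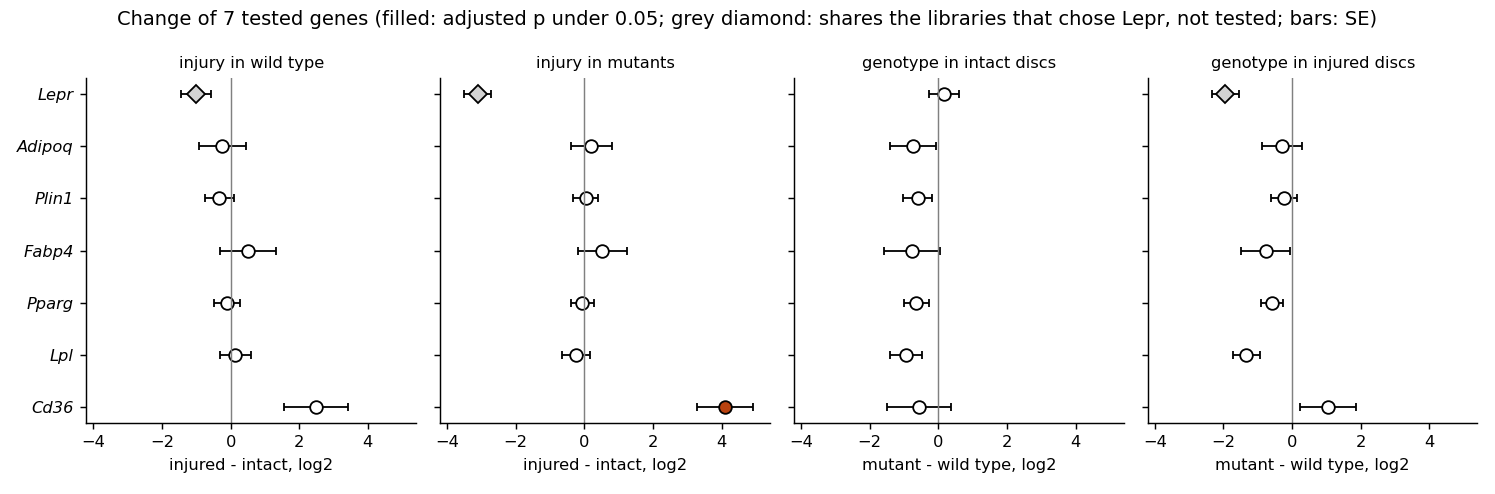
Log2 change of the 7 tested genes in 4 comparisons, with SE bars, filled where limma's adjusted p is under 0.05. Only Cd36 for injury in mutants (4.09) is filled, and grey diamonds mark the untested Lepr values (-1.01, -3.11 and -1.94) that use the injured libraries by which it was chosen.

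Lepr apart, 1 of the 6 tested members, Cd36, passed in injured mutants, where 30.8% of all 24188 tested genes passed (13.1% higher, 17.7% lower). In the wild type 0 of the 6 passed by limma, where 0.116% of all genes did, with 1 (Cd36) at an unadjusted p under 0.05 and 0 passing by voom. Between intact genotypes 0 of 7, Lepr included, passed by limma (0.0165% of all genes), with 0 at an unadjusted p under 0.05 and 0 by voom. Between injured genotypes 0 of the 6 passed by limma (0.918% of all genes), with 1 (Lpl) at an unadjusted p under 0.05 and 0 by voom. For the difference of the injury changes 0 of the 6 and 0 of 24188 genes (0%) passed by limma, with 0 of the 6 at an unadjusted p under 0.05 and 0 by voom. Over all 24188 genes, an unadjusted p under 0.05 was reached by 4155 for injury in the wild type and 10158 for injury in mutants. It was reached by 915 between intact genotypes, 4912 between injured genotypes and 1979 for the difference of the injury changes. By voom 4, 7832, 4, 553 and 0 genes passed, in the same order. These counts apply to each list below as well. The comparisons of each genotype share their intact or injured libraries.

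Whether Lepr moved with adipocyte genes was tested across the 7 intact libraries, and no relation passed. Their levels do not enter the difference that chose Lepr, though the limma fit takes its spread from all 16 libraries. Pearson's r of log2(TPM + 1) with Lepr was -0.58 for Lpl, -0.55 for Pparg, -0.40 for Plin1, -0.33 for Fabp4, -0.32 for Adipoq, -0.24 for Retn and -0.03 for Cd36. By exact two-sided permutation none of the 7 relations passed, with p from 0.166 to 0.940 and Benjamini-Hochberg adjusted p from 0.749 to 0.940. Spearman's rho lay between -0.61 (Pparg) and 0 (Plin1), with adjusted p from 0.825 to 1. Without the 2 libraries farthest from the median of Lepr (wild-type intact mice 1 and 2), r was 0.25 for Lpl, -0.13 for Pparg and 0.22 to 0.41 for the other 5, so the negative signs of 6 of the 7 rested on those libraries. Without mouse 1 alone, r was positive for 5 genes (0.44 for Adipoq, 0.26 for Plin1, 0.30 for Fabp4, 0.30 for Cd36 and 0.51 for Retn).

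Within genotypes the intact libraries, 3 and 4, were too few for a correlation. Each r across the 7 can thus mix a difference between genotypes with the spread between mice. Lpl, for example, did not overlap between the intact genotypes. Across the 9 injured libraries, which chose Lepr and are given as a description, r with Lepr was 0.74 for Lpl, 0.63 for Pparg, 0.11 for Plin1, 0.10 for Fabp4, -0.22 for Adipoq, -0.26 for Retn and -0.52 for Cd36. Expressed as deviations from the group means over all 16 libraries, which removes the group differences, the values were 0.35 for Lpl and 0.23 for Pparg and ran from -0.16 (Plin1) to -0.49 (Adipoq) for the other 5. Among the adipocyte genes themselves r over 16 libraries ranged widely, from 0.84 between Adipoq and Plin1, 0.83 between Pparg and Lpl and 0.82 between Adipoq and Fabp4 to -0.12 between Cd36 and Lpl. With Lepr it was -0.13 for Adipoq and 0.42 for Lpl. These points share library depth and the 2 libraries highest in Adipoq and Plin1.

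**Figure D3:**
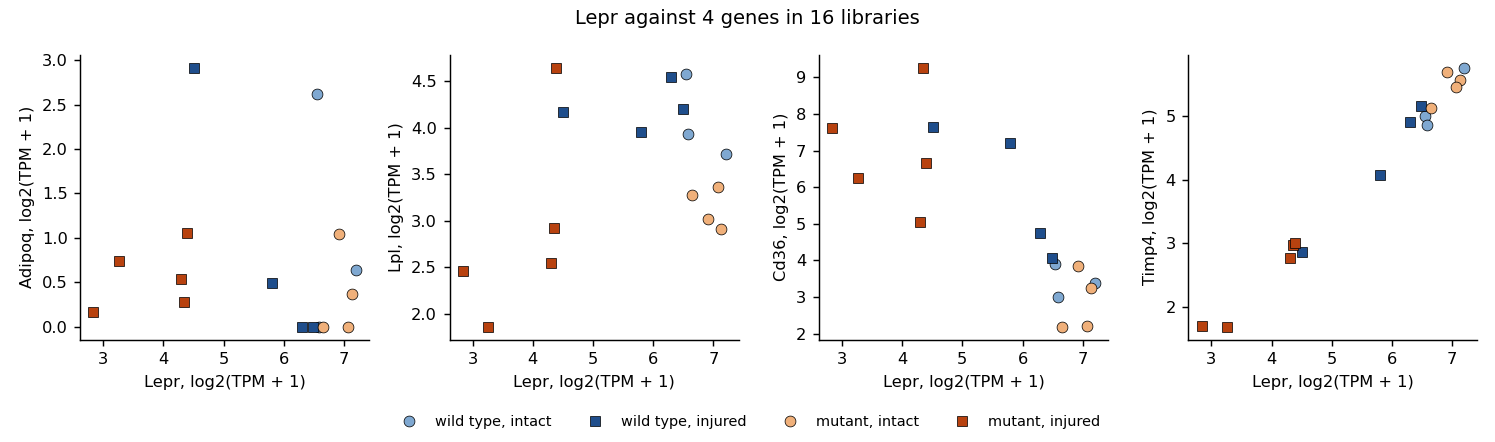
Lepr on the x axis against Adipoq, Lpl, Cd36 and Timp4 on the y axis, all as log2(TPM + 1), 1 point per library (16), coloured by group. Timp4, picked by its r with Lepr, lies along a line with it (r = 0.99). Cd36 runs the other way (r = -0.80), and Adipoq and Lpl show no line (r = -0.13 and 0.42).

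The 5 genes whose pattern was most like that of Lepr included none of the adipocyte members. Over 16 libraries and among the 11870 genes whose mean level reached 5 TPM, the highest Pearson's r with Lepr belonged to Timp4 (0.99), an inhibitor of metalloproteases, Mill2 (0.98), an MHC class I-like gene, Frzb (0.98), a secreted Wnt antagonist, Gli1 (0.98), a transcription factor and target of hedgehog signalling, and Fxyd1 (0.98), a regulator of the sodium pump. As deviations from group means their r was 0.97, 0.90, 0.92, 0.86 and 0.89. These deviations are part of the r by which the 5 genes were picked, so they are a description. Lpl ranked 4267 and Cd36 10673 in this order. The other members lay under the mean level required, and 40.0% (Pparg) to 65.1% (Retn) of the ranked genes had a higher r than they did.

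Timp4 was at 31.0, 28.0 and 53.0 TPM in wild-type intact, 34.4, 28.8, 6.29 and 15.9 TPM in wild-type injured, 46.1, 42.5, 50.4 and 33.7 TPM in mutant intact and 2.25, 6.84, 2.23, 7.02 and 5.80 TPM in mutant injured discs. Its lowest libraries, mutant injured mice 1 and 3, were also the lowest in Lepr. Its change in injured mutants was -3.02 ± 0.42 (SE), against -3.11 for Lepr. Likeness was measured over all 16 libraries, the injured groups included. Shared low libraries and a fall in injured mutants are thus part of the choice and were not tested for these 5 genes.

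Of 17 genes of leptin receptor signalling, all tested, 5 rose and 1 fell in injured mutants (limma, 30.8% of all genes), with a median change of 0.23 against -0.08 over all genes. Socs3, the feedback inhibitor induced by Stat3, was at 19.1 to 43.0 TPM in mutant intact and 144 to 377 TPM in mutant injured discs, without overlap. Its log2 change was 2.95 ± 0.58 (SE, limma, adjusted p = 0.00258).

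The phosphatase gene Ptpn2 rose by 1.41 ± 0.22 (SE, limma, adjusted p = 0.000883) and Stat3 itself by 0.78 ± 0.14 (SE, limma, adjusted p = 0.00166). Irs2, an adaptor shared with insulin signalling, fell by 1.02 ± 0.19 (SE, limma, adjusted p = 0.00215) on the log2 scale. In the wild type 0 of the 17 passed by limma and 0 by voom, with a median of 0.24. An unadjusted p under 0.05 (limma) was reached by 7 of them, beside 4155 of all 24188 genes. Socs3 changed there by 1.97 ± 0.66 (SE, limma, adjusted p = 0.183). These genes serve many cytokine receptors, and the macrophage markers given above rose in the same libraries.

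**Figure D4:**
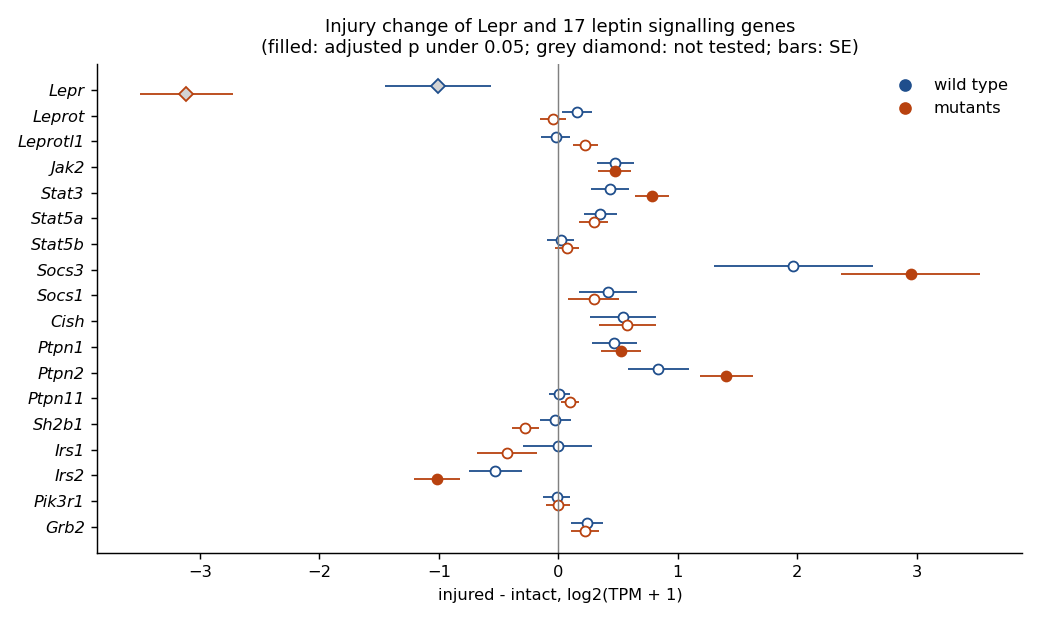
Injury change (injured minus intact, log2 scale) of Lepr and 17 leptin signalling genes in wild type and mutants with SE bars, filled where limma's adjusted p is under 0.05. Lepr, drawn as grey diamonds and not tested, lies at -3.11 in mutants, while Socs3 (2.95) and Ptpn2 (1.41) lie on the other side of 0.

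Marrow stromal cells that carry the leptin receptor were represented by 14 other genes. In injured mutants 5 rose and 2 fell (limma, median 0.72 against -0.08 over all genes), or 7 of 14, where 30.8% of all genes were called (13.1% higher, 17.7% lower). Vcam1 (1.67), Foxc1 (1.66) and Ebf3 (1.47) rose, the last 2 being transcription factors of these cells, whereas Grem1 (-2.64), a BMP antagonist, and the cytokine gene Il7 (-1.23) fell. Among wild-type mice 0 of the 14 passed by limma, with 6 at an unadjusted p under 0.05 (4155 of all 24188 genes) and 0 by voom.

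Adipogenic transcription factors split. Of 15 genes 13 were tested, and 5 rose and 3 fell in injured mutants (limma, median 0.47), beside 13.1% of all genes higher and 17.7% lower. The C/EBP genes rose most: Cebpa by 3.07 ± 0.47 (SE, adjusted p = 0.000785), Cebpd by 2.38 ± 0.24 (SE, adjusted p = 0.000117) and Cebpb by 2.32 ± 0.48 (SE, adjusted p = 0.0032). Klf15 (-1.79), Srebf1 (-0.68) and Ppara (-0.68) fell. In the wild type Cebpd alone passed, with a change of 1.54 ± 0.27 (SE, limma, adjusted p = 0.0491), and it did not pass by voom. C/EBP factors also act in myeloid cells, whose markers rose in these libraries, and the part of those cells was not tested.

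Of 30 further adipocyte lipid and adipokine genes 21 were tested, and 1 rose and 4 fell in injured mutants (limma, median -0.10 against -0.08 over all genes). That is 5 of 21, near the 30.8% of all genes called. Acly, an enzyme of fatty acid synthesis, rose by 1.23. Car3 (-3.22), the glucose transporter gene Slc2a4 (-1.35) and the lipid droplet gene Plin4 (-0.80) fell. Car3, a carbonic anhydrase common in fat and muscle, was at 3696 to 9947 TPM in intact discs where Adipoq was at most 5.16 TPM. Lipe, the hormone-sensitive lipase, did not pass (-0.11 ± 0.17, SE, limma, adjusted p = 0.660). Of the 21, 0 passed by limma in wild-type mice, with 2 at an unadjusted p under 0.05 and 0 by voom.

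Among 22 regulators of lipoprotein lipase and genes of fatty acid handling, 20 were tested, and 2 rose and 4 fell in injured mutants (limma, median -0.19), a share of 6 in 20 close to the 30.8% of all genes. Angptl4, a secreted inhibitor of lipoprotein lipase, rose by 2.43 ± 0.68 (SE, adjusted p = 0.0150), from a mean of 1.13 to 13.8 TPM. Cpt1a, which carries fatty acids into mitochondria, rose by 1.36. Slc27a3 (-1.06), an acyl-CoA synthetase, Angptl8 (-0.73) and Sel1l (-0.42), which lipoprotein lipase needs to leave the endoplasmic reticulum, fell. For the wild type 0 of the 20 passed by limma, with 3 at an unadjusted p under 0.05 and 0 by voom.

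Of the 5 adiponectin receptor and adaptor genes, Adipor2 rose by 0.86 ± 0.13 (SE, limma, adjusted p = 0.000831) and Appl2 fell by 0.43 ± 0.08 (SE, limma, adjusted p = 0.00204) in injured mutants, 2 of 5 where 30.8% of all genes were called. There were 0 calls by limma in the wild type, with 2 at an unadjusted p under 0.05 and 0 by voom. Of the 90 genes tested in these 6 lists, from leptin signalling to the adiponectin receptors, 0 passed by limma between intact genotypes (0.0165% of all genes), with 2 at an unadjusted p under 0.05 and 0 by voom. Between injured genotypes 0 passed by limma (0.918% of all genes). An unadjusted p under 0.05 (limma) was reached by 22, beside 4912 of all 24188 genes, and 2 passed by voom, beside 553 of all genes.

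All calls among the disc cell markers were falls, with a median change of -0.91 in injured mutants against -0.08 over all genes. An unadjusted p under 0.05 (limma) was reached there by 7 of the 11 tested, and 6 passed by voom. Of all 24188 genes 10158 and 7832 did so. In injured mutants 4 of 11 tested fell and 0 rose (limma), where 30.8% of all genes were called and 17.7% were lower: Tbxt (-3.15, listed under its older symbol T), the notochord factor, Krt19 (-3.02), Krt8 (-2.56) and Comp (-2.54), a cartilage matrix protein. Tbxt was at 1789 to 2916 TPM in mutant intact discs and at 21.5, 593, 115, 1568 and 721 TPM in mutant injured mice 1 to 5. Its lowest libraries, mice 1 and 3, were also the lowest in Lepr, but this did not hold for the disc markers together. Their sum was lowest in mutant injured mouse 2, at 7566 TPM, against 11760 and 13370 TPM in mice 1 and 3. Over 16 libraries r with Lepr ran from -0.57 (Sox9) to 0.92 (Comp) among the 12 disc markers. Of 5 tested osteoblast markers 1 fell, again where 17.7% of all genes were lower. It was Alpl, the alkaline phosphatase of mineralising cells (-2.34), which was also lower in mutants among injured discs (-1.83, limma, adjusted p = 0.0490), where 0.918% of all genes were called. The part of disc cell RNA in the lower Lepr values was not tested.

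Of the markers of other cells, S100a8 (4.34) and S100a9 (4.21) of neutrophils rose in injured mutants among 7 tested (limma, 13.1% of all genes higher), with 0 by voom. None of 12 endothelial, 11 muscle and 5 erythroid markers passed there, with 4, 0 and 1 at an unadjusted p under 0.05 and 0 by voom. In the wild type 0 of 11 macrophage markers passed by limma, with 10 at an unadjusted p under 0.05 (4155 of all 24188 genes) and 0 by voom.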

How the data were processed

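RNA of 16 mouse disc libraries was sequenced after ribosomal RNA depletion with FastSelect, per the labels' protocols, whereas the molecule field reads polyA RNA. The authors deposited 1 table of TPM values, each column summing to 1000000. Reads were demultiplexed with bcl2fastq 2.20 and the build was GRCm38, per the submitters' processing notes. The aligner, the counter, its use of strand and the annotation are not given in the sources used here. No exon of the 8 genes overlaps one of another gene in GENCODE M21.

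Groups and mouse numbers came from the titles, which give the genotype where the genotype field of the wild type is cut short. The members, lists and tests were chosen with earlier results of these data known. A gene was tested when 3 or more libraries held 1 TPM or more, as 24188 of 49315 did, among them 7 of the 8 members. The test was limma 3.58.1 in R 4.3.3 on log2(TPM + 1), with a mean per group over all 16 libraries, eBayes with a trend, and Benjamini-Hochberg adjustment over all tested genes at a threshold of 0.05. SEs are limma's moderated ones. The p-values measure the spread between mice. Correlations used exact permutation in Python 3.11.15 with scipy 1.17.1.

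Gene positions and union exon lengths came from GENCODE M21, which holds 48970 (99.3%) of the identifiers. With the worth of 1 read at that length as the unit, 94.2% to 95.0% of low values (under 20 reads) lay within 0.05 of a whole number, and the reads so implied are approximations. Named genes were the members, the Adam8 gene, at most 3 rises and 3 falls per list that passed the test together with defining markers, and the 5 genes with the highest r to Lepr among symbols other than Gm or Rik names. The fit was tested on simulated data. Alternatives were a pseudocount of 0.1, no filter, a mean of at least 5 TPM, median-of-ratios scaling, quantile normalization, the library naming of mutants as a covariate, a block for the mouse number, a fit of only the compared groups, and leaving out each mouse. A voom fit of the implied reads was chosen after seeing the data.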

Additional observations from a re-analysis of the deposited data

Results flagged for a closer look

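Adipoq in the wild-type injured discs was set apart by 1 library. Mouse 3 was at 6.54 TPM where the other 3 mice were at 0, 0 and 0.405 TPM, and on the log2(TPM + 1) scale its gap to the nearest mouse was 0.832 of the group's range, above Dixon's 95% critical value for 4 samples. Of 24 groups examined on that scale this was the only such value, and chance gives about 1 in 20. On the TPM scale, looked at after seeing the data, the gap was 0.938 of the range, and a pair of other values also passed: Lpl in mutant injured mouse 4 (24.1 TPM, 0.815 of the range) and Cd36 in mutant injured mouse 2 (614 TPM, 0.719 of the range). The same library was the highest in Fabp4 (20.3 TPM) and Cidec (4.71 TPM), and the part of adipose RNA in it was not tested.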

How the results depend on the processing

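Counts here include Lepr, whose values in injured discs chose it, so its part in them is a description. Members called for injury numbered 0 in the wild type under all settings and 2 (Lepr and Cd36) in mutants under all but 1 (with single mice left out, 2 to 3, where Lpl joined), and for genotype in intact discs and for the interaction 0 throughout. Between injured genotypes the 1 call was Lepr, so nothing is read from that count. It became 0 with no filter, with quantile normalization, with only the groups compared and with the replicate block, and ran from 0 to 2 with single mice left out. Of the relations of Lepr across intact libraries 0 passed under any setting.

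Signs of small changes turned. Plin1 in injured mutants was -0.0395 with a pseudocount of 0.1, -0.0438 with quantile normalization and -0.20 by voom. Adipoq between injured genotypes was 0.26 with a pseudocount of 0.1. The r of Cd36 with Lepr was 0.00446 with quantile normalization.

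Leaving out each mouse gave these ranges for values that turned. For injury in the wild type they were -0.93 to 0.53 (Adipoq), -0.66 to 0.14 (Plin1), -0.19 to 1.25 (Fabp4), -0.22 to 0.13 (Pparg) and -0.0377 to 0.394 (Lpl). For injury in mutants they were -0.10 to 0.16 (Plin1), -0.30 to 0.15 (Pparg) and -0.69 to 0.0033 (Lpl). Between genotypes they were -1.28 to 0.0335 (Adipoq, intact), -0.58 to 0.39 (Adipoq, injured) and -0.45 to 0.10 (Plin1, injured). For r with Lepr they were -0.55 to 0.44 (Adipoq), -0.56 to 0.26 (Plin1), -0.53 to 0.30 (Fabp4), -0.31 to 0.30 (Cd36) and -0.48 to 0.51 (Retn). The cause of these turns was not tested.

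Same-numbered libraries are different mice, and of 21 same-numbered pairs 1 had a correlation of deviations above 0.1 (range -0.22 to 0.15). Differently numbered pairs are not given beside them, so these values cannot show whether the numbers share more than a name. With the replicate block, Lpl for injury in the wild type was -0.0310, Plin1 for injury in mutants was -0.0652, and members called numbered 0 between injured genotypes and 2 for injury in mutants. At 0 to 46 implied reads, Adipoq, Plin1 and Retn are limited by depth.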
